A study of Mus musculus with 4 samples.

Results

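The 10 genes described here encode CTCF and the proteins of the cohesin complex that act with it: CTCF, the ring subunits SMC1A, SMC3, RAD21, STAG1 and STAG2, the loaders NIPBL and MAU2, the release factor WAPL and the acetyltransferase ESCO1. They were taken by gene name, by a rule that uses no measured value, although the set was chosen with earlier results of these data known. Each gene matched 1 of the 58735 gene rows of the deposited count table. By their labels the libraries were made from total RNA of Jurkat, an established line from a human T cell leukaemia. The labels list the organism as mouse, although every gene identifier is human. All 4 libraries were labelled as this line, grown with fetal bovine serum and antibiotics: 2 were labelled wild-type and 2 Matr3 knockout by CRISPR-Cas9, with no time, dose or further allele given. Whether the edited cells were 1 clone or a pool, and whether the libraries came from separate cultures, is not stated, so a p-value covers no more than the differences among these 4 libraries, and those within a group may be technical.

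Cohesin is a ring of the ATPases SMC1A and SMC3 closed by the kleisin RAD21, to which a STAG subunit binds. NIPBL and MAU2 load the ring on DNA and drive its extrusion of chromatin loops, WAPL opens it, and the zinc finger protein CTCF halts it at bound sites, which sets loop anchors and domain borders. The same ring holds sister chromatids together until mitosis, and cohesin genes are recurrently mutated in myeloid leukaemias.

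Total counts ranged from 15008554 to 17477643 per library. The 10 genes held between 93 reads (ESCO1) and 3249 reads (RAD21) in a library, and all 10 passed the filter on low counts. MATR3, the targeted gene, had 19 and 9 reads in wild-type against 42 and 61 under the knockout label (ENSG00000015479). That row was higher by edgeR's quasi-likelihood test (log2 fold change 2.05, adjusted p = 2.85e-06). A second, overlapping row had 5 or fewer reads in every library. These rows thus do not show the knockout, and the directions below are those of the libraries labelled knockout. Cell type markers moved with the label. Of 15 myeloid markers, 13 were tested and all 13 were higher, with a summed level of 95.98 and 98.7 CPM (counts scaled to library size) in wild-type against 6098 and 5974 CPM under the knockout label. MPO, the myeloperoxidase gene, made up 4972 and 4867 CPM of the latter. ELANE and CSF3R had 0 reads in wild-type against 322 to 426 under the knockout label, while the untested CD68 had at most 1 read and CD14 at most 8 in any library. Of 16 T cell markers, 14 were lower and 0 higher, with sums of 3800 and 3566 CPM against 1584 and 1548 CPM, and none was at 0. MS4A1 of the B cell list and EPCAM and KRT19 of the epithelial list had 0 reads in all 4 libraries, although KRT8 and KRT18 were higher (epithelial sums 13.03 and 10.9 against 122.3 and 123.2 CPM). Of 6 B cell markers 3 were tested, with 1 higher and 2 lower (sums 41.7 and 36.4 against 13.8 and 13.01 CPM). Mitochondrially encoded genes took 5.31% and 4.92% of counts in wild-type against 9.49% and 9.33% under the knockout label. Whether the libraries labelled knockout came from Jurkat cells was not tested, and a different source of cells and the knockout cannot be told apart in any difference between the groups below. The part of these shifts in the results on CTCF and cohesin was not tested, and in bulk RNA fewer cells of a type and less RNA per cell cannot be told apart.

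Most CTCF and cohesin genes differed between the groups, and they did not move as a unit. SMC3 and NIPBL were more than 2-fold higher in the libraries labelled knockout. ESCO1, WAPL and STAG2 were higher by about 1.5 to 1.7 times, RAD21 and MAU2 by less, CTCF was lower (-33.3%), SMC1A was slightly lower and STAG1 did not pass the test. By edgeR's quasi-likelihood test at an adjusted p of 0.05, 7 of the 10 genes were higher and 2 lower. Among all genes, 66.0% of 15294 tested genes were called, 33.7% higher and 32.3% lower, so calls are the rule in this comparison. The libraries of the groups did not overlap in CPM for 9 of the 10 genes, 7 higher and 2 lower, against 82.0% of all tested genes, 41.6% higher and 40.4% lower. Among genes averaging at least 5 CPM, a level that all 10 genes reached, the share called was 73.5%. The median log2 fold change was 0.46 over the 10 genes and 0.02 over all tested genes. Only SMC3 and NIPBL, 20% of the genes, changed at least 2-fold, against 26.3% of all tested genes.

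**Figure D1:**
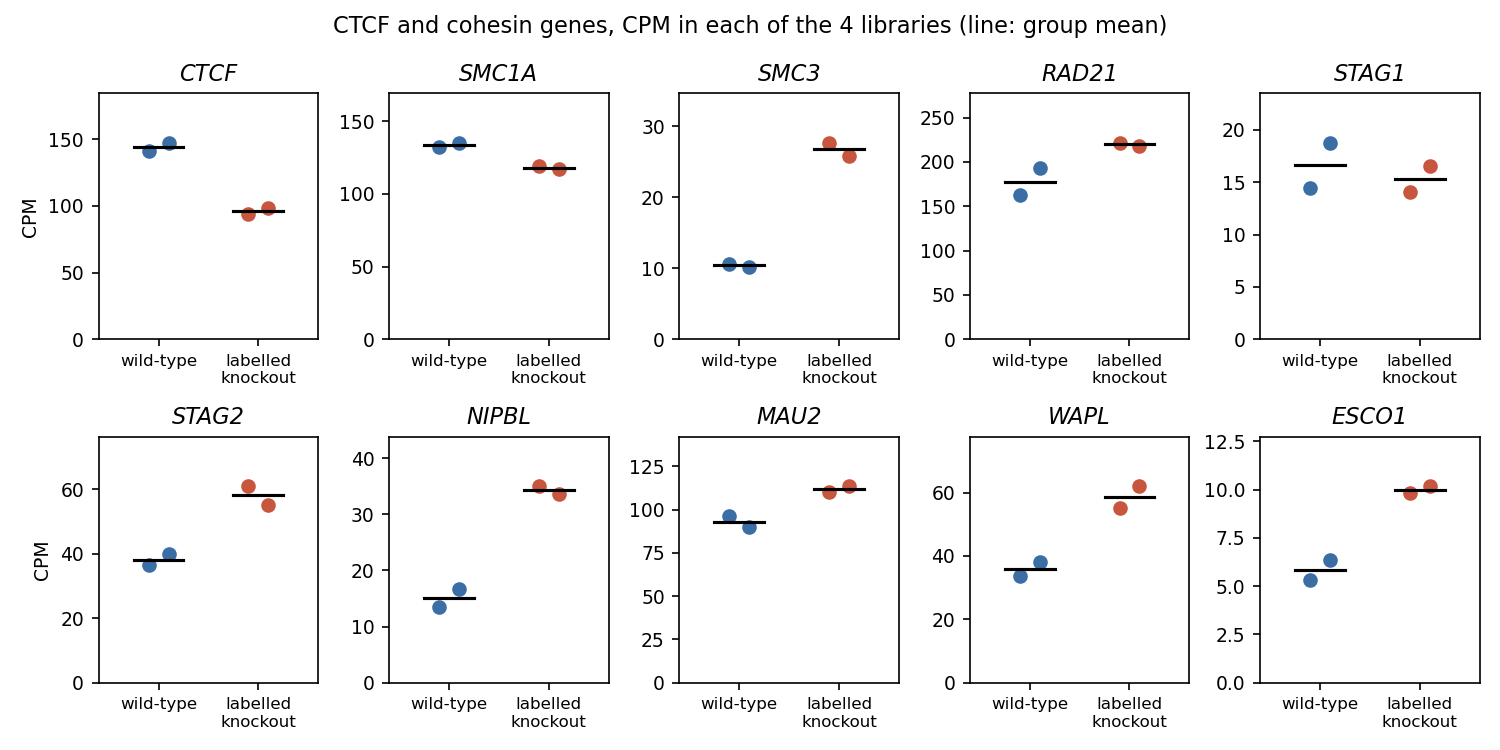
CPM of each gene in each library (vertical axes start at 0 and differ between panels; blue points are wild-type, red points are labelled knockout, black lines are means of 2 libraries). The groups are separate in 9 panels and overlap for STAG1.

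CTCF binds DNA through its zinc fingers and is the main insulator protein of vertebrate genomes. The gene (ENSG00000102974, chromosome 16, 67562407 to 67639185, plus strand, on a build that no source names) had 2458 and 2347 reads in wild-type against 1381 and 1455 under the knockout label. This corresponded to 141.1 and 147.4 CPM against 94.2 and 98.1 CPM. Both libraries labelled knockout were below both wild-type libraries, with a gap of over 40 CPM between groups that each spanned less than 7 CPM. CTCF fell by 33.3%, from 144.3 ± 4.46 to 96.2 ± 2.75 CPM (SD, n = 2 each), with a log2 fold change of -0.58 (SE 0.0754, adjusted p = 1.72e-10). About the same number of tested genes moved more than CTCF as moved less, since 49.8% had a larger absolute log2 fold change. In per-length terms CTCF went from 2nd of the 10 genes in wild-type, at 14.2 RPKM (CPM per kilobase of listed gene length), to 4th in the libraries labelled knockout, at 9.45 RPKM.

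The SMC genes of the ring differed in how they changed, and their levels lay closer together under the knockout label. SMC3 (ENSG00000108055, chromosome 10, 110567691 to 110604636, plus strand) encodes the ATPase whose acetylation stabilises the ring on DNA. It had 185 and 162 reads in wild-type against 406 and 383 reads under the knockout label, or 10.6 and 10.2 CPM against 27.7 and 25.8 CPM. The groups lay far apart beside their own spread. The rise was 2.57-fold, from 10.4 ± 0.315 to 26.8 ± 1.32 CPM (SD, n = 2 each), with a log2 fold change of 1.36 (SE 0.152, adjusted p = 1.02e-12), and 16.6% of tested genes had a larger absolute change.

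SMC1A (ENSG00000072501, chromosome X, 53374149 to 53422728, minus strand), the partner ATPase, stood at 132.1 and 135.3 CPM in wild-type against 119.3 and 116.8 CPM under the knockout label. The groups did not overlap, but the fall was small, with a log2 fold change of -0.18 (SE 0.0743, adjusted p = 0.0289). The call was lost without either library labelled knockout (log2 fold change -0.20 without replicate 1 and -0.16 without replicate 2). It was also lost under 5 more of the 13 alternatives that give a fold change, while the sign stayed negative. Among these were DESeq2 size factors, upper-quartile factors, leaving out mitochondrially encoded genes and the DESeq2 Wald test. At a threshold of 0.01 the call was lost as well. The ratio of SMC1A to SMC3 in RPKM was 5.07 and 5.42 in wild-type against 1.76 and 1.85 under the knockout label. The mean ratio was thus 2.91 times as high in wild-type, and most of that difference came from SMC3. Ratios over 2 libraries against 2 were not tested, since an exact permutation test cannot go below p = 0.333 at this size.

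RAD21 and the STAG subunits complete the ring. RAD21 (ENSG00000164754, chromosome 8, 116845935 to 116874866, minus strand), the kleisin that separase cuts at anaphase, was the most abundant of the 10 genes per length in all 4 libraries. It stood at 162.3 and 193.4 CPM in wild-type against 221.6 and 217.6 CPM under the knockout label. Wild-type replicate 2 lay nearer to the other group than replicate 1 did, though the groups did not overlap. RAD21 rose by 0.31 on the log2 scale (SE 0.0736, adjusted p = 0.000201), and it was 0.20 without wild-type replicate 1 and 0.42 without wild-type replicate 2. RAD21-AS1, an antisense gene at the RAD21 start, had 0 reads in 3 libraries and 2 in the other. UTP23, which overlaps the other end of RAD21 on the opposite strand, was at -0.18 and did not pass the test (adjusted p = 0.441).

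STAG1 and STAG2 encode alternative subunits that contact CTCF, and a ring carries 1 of them. STAG2 (ENSG00000101972, chromosome X, 123960212 to 124422664, plus strand) stood at 36.5 and 39.8 CPM in wild-type against 60.9 and 55.2 CPM under the knockout label. Every library labelled knockout was above both wild-type libraries, with a log2 fold change of 0.61 (SE 0.0973, adjusted p = 9.29e-08). STAG1 (ENSG00000118007, chromosome 3, 136336233 to 136752403, minus strand) stood at 14.5 and 18.8 CPM against 14.05 and 16.5 CPM. Its groups overlapped, and the log2 fold change of -0.12 (SE 0.159, adjusted p = 0.525) neither passed the test nor showed that the level was the same.

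The balance of the STAG paralogues differed between the groups. STAG1 made up 29.3% and 33.0% of the summed STAG1 and STAG2 RPKM in wild-type against 19.4% and 23.8% under the knockout label. The groups did not overlap, at 31.1% ± 2.64 and 21.6% ± 3.12 (SD, n = 2 each), and STAG2 was the more abundant paralogue in every library. The STAG2 row spans SH2D1A, the adaptor gene of SLAM receptor signalling in T cells, on the same strand. SH2D1A fell by 0.99 on the log2 scale (adjusted p = 1.62e-15) while STAG2 rose. Reads in stretches that both rows cover cannot be assigned from the counting settings given. On the other strand, the STAG1 row overlaps PCCB at its end (log2 fold change -0.26, adjusted p = 0.00175), and strand use in counting is not given in the sources used here.

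**Figure D2:**
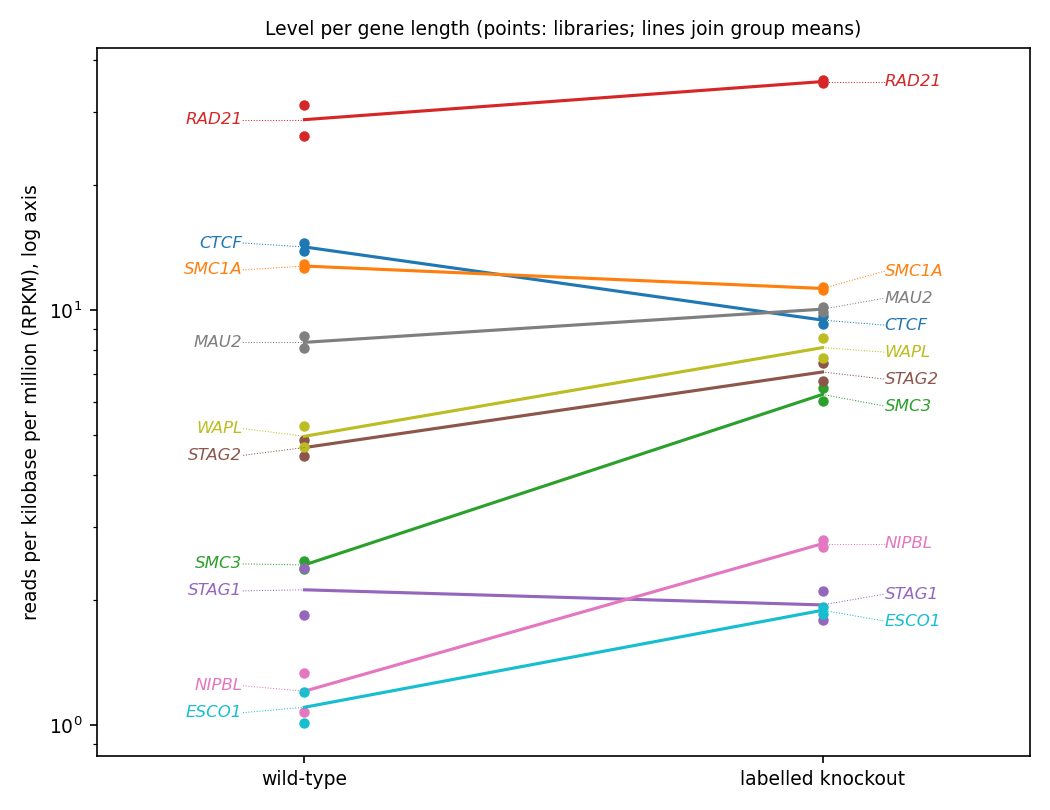
RPKM of the 10 genes on a log axis, in wild-type (left) and in the libraries labelled knockout (right), with points for libraries and lines joining group means. RAD21 is highest on both sides, CTCF drops from 2nd to 4th, and the SMC3 and NIPBL lines are the steepest.

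The loading factors rose unequally. NIPBL, the HEAT-repeat protein that activates the cohesin ATPase, lies on chromosome 5 (ENSG00000164190, 36876759 to 37066413, plus strand). It had 235 and 267 reads in wild-type against 513 and 498 under the knockout label, or 13.5 and 16.8 CPM against 35.0 and 33.6 CPM. The lower of the latter was 2 times the higher wild-type library, and the rise was 2.27-fold (log2 fold change 1.18, SE 0.137, adjusted p = 4.44e-12). MAU2 (ENSG00000129933, chromosome 19, 19320681 to 19358755, plus strand), which binds and stabilises NIPBL, stood at 96.2 and 90.0 CPM in wild-type against 110.3 and 113.5 CPM under the knockout label. The rise of 0.27 on the log2 scale (SE 0.0769, adjusted p = 0.00185) was no longer called without either library labelled knockout (adjusted p = 0.0501 without replicate 1 and 0.0947 without replicate 2). The MAU2 row overlaps SUGP1 on the other strand, whose log2 fold change of -0.10 did not pass the test (adjusted p = 0.319). MAU2 exceeded NIPBL 8.02-fold and 6.03-fold in RPKM in wild-type against 3.54-fold and 3.80-fold under the knockout label.

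NIPBL-DT, a long noncoding RNA gene transcribed in the opposite direction, starts 59 bases from the NIPBL start in the deposited coordinates (chromosome 5, 36864425 to 36876700, minus strand). It had 117 and 143 reads in wild-type against 243 and 248 under the knockout label. The log2 fold change of 1.09 (SE 0.178, adjusted p = 1.43e-07) was close in size to that of NIPBL. Both genes of the divergent pair thus had over 1.5 times as many reads in each library labelled knockout as in either wild-type library.

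WAPL and ESCO1 act on the loaded ring in opposite ways, since WAPL releases it and ESCO1 acetylates SMC3 to protect it. WAPL (ENSG00000062650, chromosome 10, 86435256 to 86521815, minus strand) had 588 and 605 reads in wild-type against 810 and 920 under the knockout label, or 4.67 and 5.26 against 7.64 and 8.58 RPKM. The groups were separate, and the rise was 1.63-fold (log2 fold change 0.71, SE 0.0989, adjusted p = 1.90e-09). ESCO1 (ENSG00000141446, chromosome 18, 21529281 to 21600884, minus strand) was the least abundant of the 10 per length by group mean, with 93 and 101 reads against 144 and 151. It rose 1.71-fold, from 5.84 ± 0.711 to 10.0 ± 0.253 CPM (SD, n = 2 each; log2 fold change 0.78, SE 0.201, adjusted p = 0.000484). The ratio of NIPBL to WAPL in RPKM was 0.231 and 0.255 in wild-type against 0.365 and 0.312 under the knockout label, while MAU2, the other loader gene, rose less than WAPL (log2 fold changes of 0.27 and 0.71, a difference that was not tested).

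**Figure D3:**
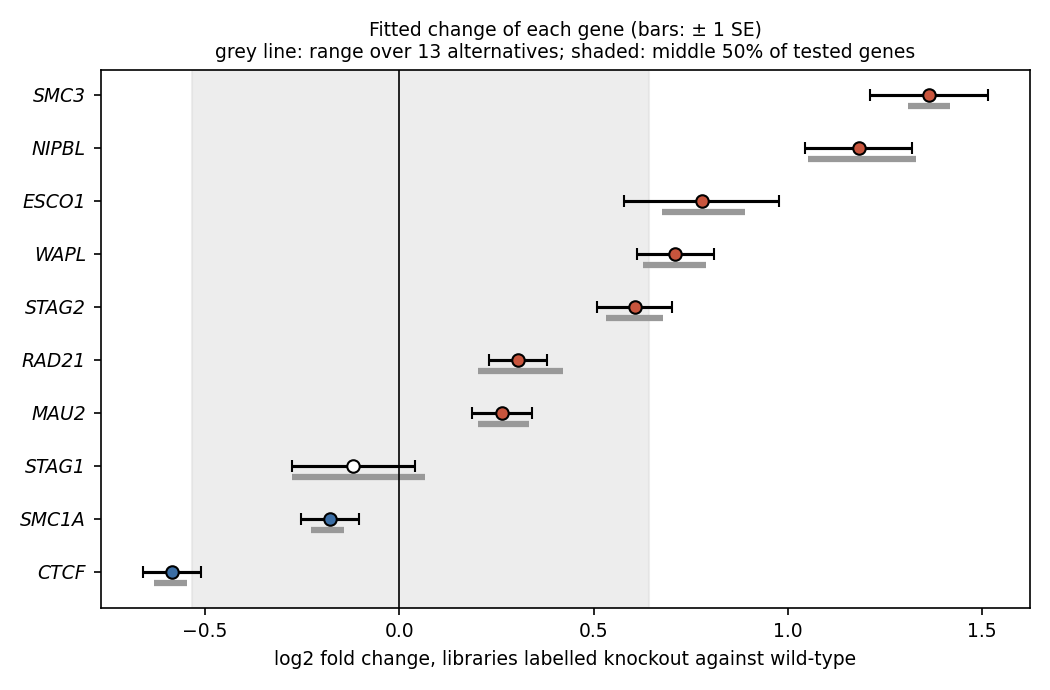
Fitted log2 fold change of each gene (points, with bars of 1 SE; red is higher, blue is lower, white did not pass the test), with the range over 13 alternative analyses as a grey line beneath and the middle 50% of all tested genes shaded. SMC3 (1.36), NIPBL (1.18), ESCO1 (0.78), WAPL (0.71) and CTCF (-0.58) lie outside the shaded band, which runs from -0.53 to 0.64, and the range for STAG1 spans 0.

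Per length, the order of the genes in wild-type was RAD21 (28.7 RPKM), CTCF, SMC1A (12.8), MAU2 (8.35), WAPL (4.96), STAG2 (4.66), SMC3 (2.43), STAG1 (2.12), NIPBL (1.21) and ESCO1 (1.10). Neighbours in this order overlapped between their libraries for WAPL and STAG2, SMC3 and STAG1, and NIPBL and ESCO1. In the libraries labelled knockout the order was RAD21 (35.5 RPKM), SMC1A (11.3), MAU2 (10.04), CTCF, WAPL (8.11), STAG2 (7.09), SMC3 (6.26), NIPBL (2.74), STAG1 (1.95) and ESCO1 (1.89), and only STAG1 and ESCO1 overlapped. The ratio of the highest to the lowest gene was 26.0 in wild-type and 18.8 in the libraries labelled knockout. Genes lower in wild-type tended to rise more, with a Spearman correlation across the 10 genes of -0.64 between wild-type RPKM and log2 fold change. The correlation was -0.62 with RPKM averaged over both groups and -0.52 with RPKM under the knockout label. These values describe 10 genes measured in the same 4 libraries, and in each case the same reads enter both measures. Lengths were those of the deposited table, so a gene whose Jurkat transcripts are shorter than its listed length has an understated RPKM.

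Each gene was also set beside its genomic surroundings, the 10 tested genes on either side. Around CTCF, 9 of the 20 nearest tested genes were lower and 1 higher (chromosome 16, 67229387 to 67847811), with a median log2 fold change of -0.25 against -0.58 for CTCF. Around SMC1A the counts were 11 lower and 4 higher, and the median was -0.51, which is further below 0 than SMC1A itself. The regions of SMC3 (median 0.20) and NIPBL (0.17) held 9 and 7 higher and 4 and 7 lower genes of 20, so the log2 fold changes of SMC3 and NIPBL exceeded their regional medians by 1.16 and 1.01. STAG1 was the reverse, at -0.12 in a region with 9 higher and 4 lower genes and a median of 0.37. Medians around the other 5 genes lay between -0.18 (ESCO1) and 0.25 (WAPL). In all, 8 of the 10 genes stood above the median of their neighbours, namely SMC1A and the 7 genes called higher. The share of all tested genes that stand above their neighbours was not computed, so this count has no background beside it. Over all tested genes of a chromosome, the median was 0.36 on chromosome 3, 0.29 on 5, 0.12 on 18 and 0.06 on 10. It was -0.14 on chromosome 19, -0.15 on 16, and -0.26 on both 8 and X. Regional medians such as that around STAG1 are thus to be read beside those of whole chromosomes. The part of regional or chromosome-wide shifts in the values of CTCF, SMC1A and STAG1 was not tested.

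**Figure D4:**
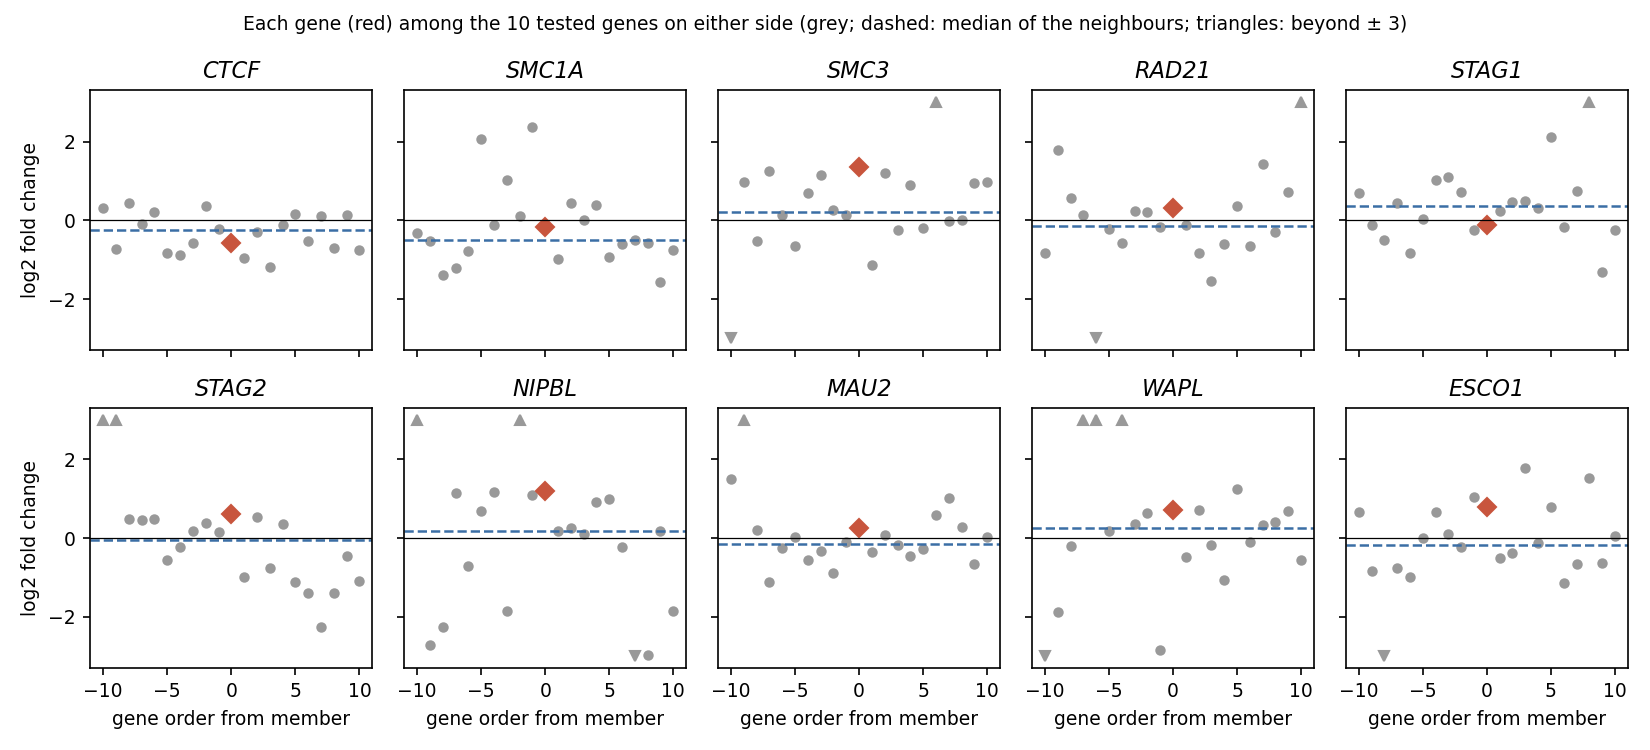
Log2 fold change (vertical axis) of each gene (red diamond) and of the 10 tested genes on either side in chromosomal order (grey, triangles where beyond 3 in size), with the neighbours' median dashed. SMC3 and NIPBL lie over 1 above the dashed line, and CTCF lies below it in a region where 9 of 20 genes were lower.

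Other genes of the machinery were mixed, with no common direction. They formed 5 lists: cohesin regulators, restricted paralogues, CTCF-associated proteins, condensin and the SMC5/6 complex. Of their 39 genes, 36 were tested, 12 were higher and 11 lower, and the median log2 fold change was -0.03. The share called, 63.9%, was near that of all tested genes. Among 12 cohesin regulators 3 were higher, 2 lower and 7 not called. PDS5A and PDS5B, the scaffolds through which WAPL and acetylation act, were higher at 0.53 and 0.63 on the log2 scale (adjusted p = 4.34e-08 and 0.000135). CDCA5, the sororin gene that counters WAPL after replication, fell from 337.5 ± 10.9 to 219.5 ± 2.59 CPM (SD, n = 2 each; log2 fold change -0.62, adjusted p = 1.88e-12). SGO1, the protector of centromeric cohesion, was higher by 0.60 (adjusted p = 0.00359), but its libraries labelled knockout stood at 10.6 and 16.2 CPM and the call was lost without the second (0.26, adjusted p = 0.411). HASPIN, a mitotic histone kinase, was lower by the test (log2 fold change -0.35, adjusted p = 0.00217), a call that did not hold when replicate 1 labelled knockout was left out (adjusted p = 0.169).

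ESCO2, which acetylates SMC3 during replication, stood at 9.01 and 11.87 CPM in wild-type against 11.87 and 8.97 CPM under the knockout label (log2 fold change -0.00047, SE 0.187, adjusted p = 0.998). The groups overlapped fully, unlike those of ESCO1. In RPKM, ESCO2 over ESCO1 was 1.12 and 1.24 in wild-type against 0.801 and 0.584 under the knockout label. The fall below 1 in both libraries depends on the listed gene lengths. In plain reads under that label, ESCO2 had 174 and 133 against 144 and 151 for ESCO1, so which transcript was more abundant is not settled. Among the paralogues of meiotic or restricted expression, STAG3 was lower (log2 fold change -0.80, adjusted p = 0.00102), a call lost without replicate 2 labelled knockout (adjusted p = 0.0648). STAG3 has partial copies elsewhere in the genome, so its reads are uncertain. SMC1B and REC8 did not pass the test, and RAD21L1 and CTCFL, the germline paralogue of CTCF, had 5 or fewer reads in every library.

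Of 7 genes of proteins associated with CTCF or with looping, 5 were higher and 1 lower. ADNP, a homeobox protein that competes with CTCF for sites, rose from 52.7 ± 1.82 to 115.6 ± 1.78 CPM (SD, n = 2 each; log2 fold change 1.13, adjusted p = 2.29e-21). CTCF moved in the opposite direction, at -0.58. VEZF1 was higher by 0.54 and YY1, a factor found at enhancer and promoter contacts, by 0.35 (adjusted p = 1.71e-05 and 2.73e-05). ZNF143 was at 0.54 (adjusted p = 0.0251), with 75 to 107 reads per library, and its call was lost without wild-type replicate 1 (adjusted p = 0.159) or either library labelled knockout (0.144 and 0.108), with total counts only (0.0638), by the DESeq2 Wald test (0.115) and with no expression filter (0.0507). MAZ, a zinc finger protein, fell by 0.51 on the log2 scale (adjusted p = 1.83e-09).

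Condensin, which compacts mitotic chromosomes, split as 3 higher and 3 lower of 8. The ATPase gene SMC4 (0.69), NCAPG (0.69) and NCAPD2 (0.51) were higher, and NCAPD3, of the condensin II form, was lower (-0.46), each with an adjusted p of at most 7.73e-08. The other SMC subunit of condensin, SMC2, was at -0.13 and did not pass the test. The SMC5/6 complex, which acts in DNA repair, had 1 gene higher and 4 lower of 6 tested. NSMCE3, NSMCE4A and the SUMO ligase gene NSMCE2 were at -0.64, -0.57 and -0.50, and the ATPase gene SMC6 at 0.62 (adjusted p = 1.06e-05, 5.78e-05, 0.00527 and 0.00132). The calls of SMC6 and NSMCE2 ended when replicate 1 labelled knockout was left out (adjusted p = 0.0802 and 0.067).

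**Figure D5:**
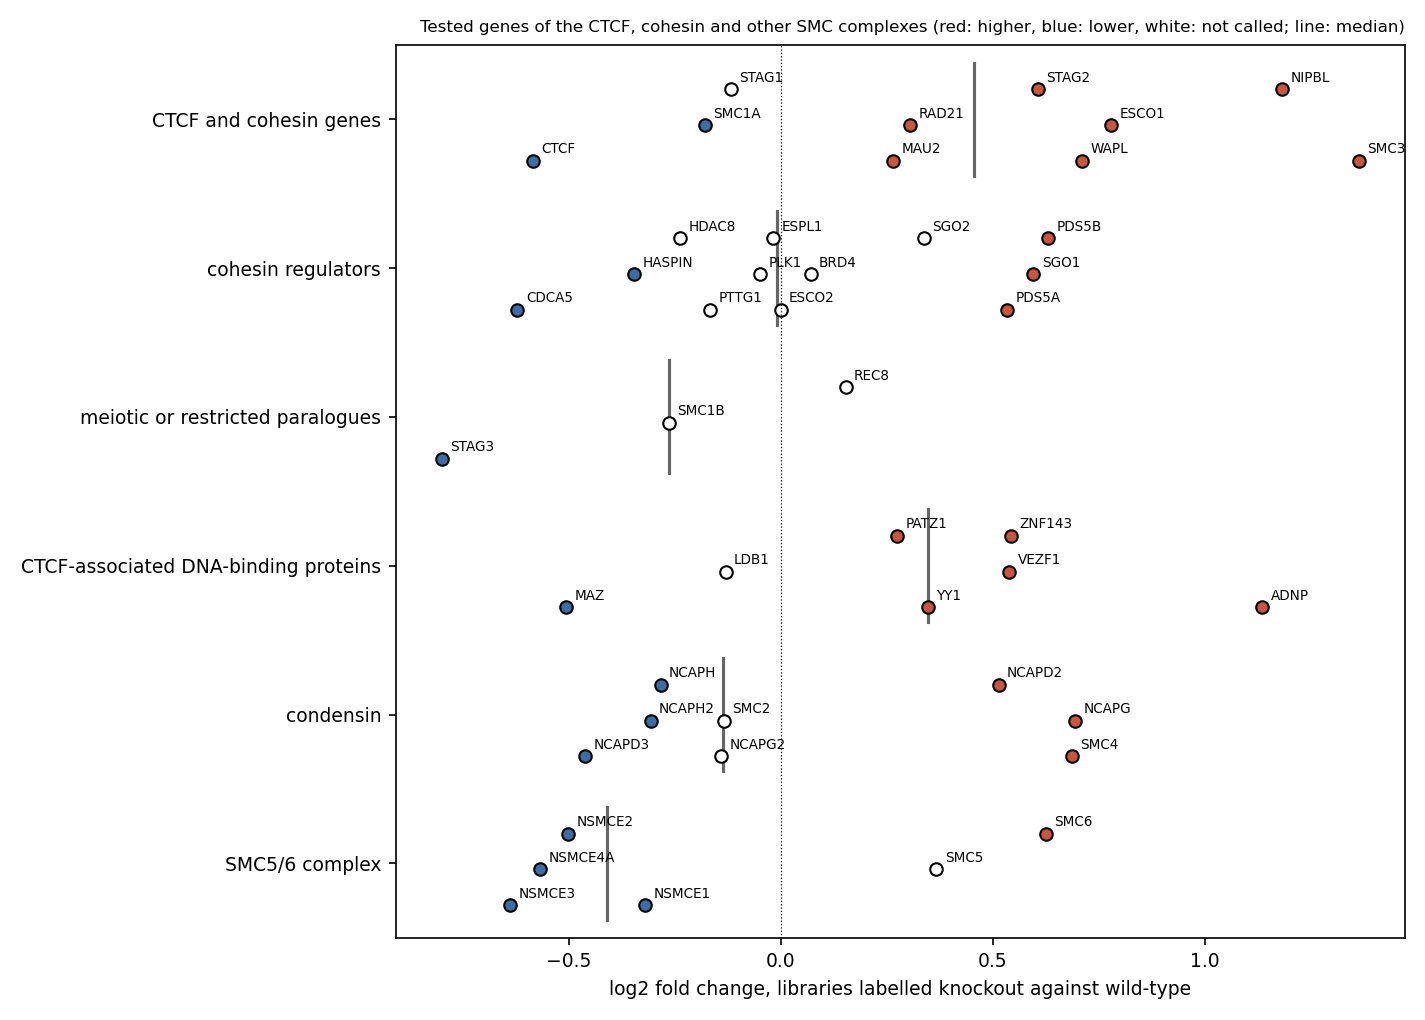
Log2 fold change (horizontal axis) of every tested gene in the 10 CTCF and cohesin genes and the 5 related lists, 1 point per gene (red higher, blue lower, white not called), with list medians as vertical lines. The median of the 10 genes is 0.46, and each other list except the CTCF-associated proteins (0.35) has a median below 0.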

How the data were processed

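The authors deposited raw counts per gene for 4 libraries, without normalization. Trizol RNA and Illumina libraries are stated per the labels' protocols. The submitters' processing notes name CASAVA 1.8, HISAT2 2.0.5 and featureCounts 1.5.0-p3. What each did, the genome build, strand use and multiply matched reads: not given in the sources used here. Gene lengths, names and coordinates come from the deposited table, per the file headers. No human sequence was used here.

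Counts were compared with edgeR 4.0.16 (R 4.3.3): TMM scaling (factors 0.978 to 1.04), default expression filter (10 counts minimum, 15 in total), two-sided quasi-likelihood test of knockout-labelled over wild-type libraries, no covariate, Benjamini-Hochberg adjustment over 15294 genes. All adjusted p-values are from this test unless another is named. CPM and RPKM use TMM-scaled library sizes, so counts set the precision. SE is for the log2 fold change, back-calculated as its absolute value over the square root of the test's F statistic. Libraries of 1 group differed by more than read sampling, which alone gives a mean chi-square per gene of about 1. The mean was 5.83 in wild-type and 2.21 under the knockout label, over genes with at least 20 reads. This cannot tell separate cultures from separate preparations of the same RNA.

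The code was first tested on simulated counts with known changes.

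The 10 genes and all lists were chosen with earlier results of these data known. All 10 were named, and up to 4 called genes per related list with the largest absolute log2 fold change. The share called among genes of at least 5 CPM, HASPIN, YY1, ESCO2, SMC2, NIPBL-DT's comparison with NIPBL, overlapping genes and every ratio but the STAG1 share were chosen after their values were seen. Alternatives were other scalings, DESeq2 1.42.0, limma 3.58.1 voom, other filters, leaving out mitochondrially encoded genes, a threshold of 0.01, a replicate block and leaving out each library. One further marker list is not reported here.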

Additional observations from a re-analysis of the deposited data

How the results depend on the processing

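Of the 14 alternatives, those that keep all 4 libraries called 8 or 9 of the 10 genes. The share of all tested genes called under them ran from 33.7% (no expression filter) to 68.7% (1 CPM in 2 libraries). CTCF, RAD21, SMC3, STAG2, NIPBL, WAPL and ESCO1 kept their direction and their call in every one of the 13 that give a fold change. Of these 13, SMC1A lost its call in 7, and MAU2 in the 2 that leave out a library labelled knockout. Without each library in turn, STAG1 ranged from -0.28 to 0.065 on the log2 scale, with the positive value without wild-type replicate 2, and was called in none. With all 4 libraries kept, 8572 to 10142 of 14260 to 28006 tested genes were called. Of the related lists, 22 to 25 of 35 to 39 tested genes were called. The scalings moved the median of all genes by at most 0.05 on the log2 scale.

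Whether the replicate numbers in the titles pair the samples is not stated. The replicate differences of the groups correlated at 0.03 over tested genes, which cannot decide this with so few libraries. With a replicate block 10072 genes (65.9% of those tested) and 9 of the 10 were called. Counts of about 100 reads limit ESCO1, ZNF143 and NIPBL-DT, and without a human genome the relation to GC content was not examined.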

Other observations

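The clustered protocadherins are adhesion genes whose promoter choice is known to depend on CTCF and cohesin. The gamma cluster summed over its 24 rows to 52 and 37 reads in wild-type against 441 and 434 under the knockout label. PCDHGC3 went from 6 and 1 reads to 248 and 228 (log2 fold change 6.21, adjusted p = 5.54e-28), and the value was 7.85 without wild-type replicate 1 and 5.50 without wild-type replicate 2. PCDHGA10 was at 3.69 (4.36 without wild-type replicate 1) and PCDHGA11 at 3.94 (4.54 without wild-type replicate 2), while PCDHGA6 and PCDHGB3 had 0 reads in wild-type and 14 to 24 reads in each library labelled knockout. PCDHGB6 was at -1.29 (adjusted p = 0.0157), a call lost without wild-type replicate 1 (adjusted p = 0.119) or either library labelled knockout (0.125 and 0.0911), and by the DESeq2 Wald test (0.111). The alpha cluster had 4 to 9 reads per library, the beta cluster 36 to 49, and H19 and IGF2 at most 1. Genes of the alpha cluster, and those of the gamma cluster, share exons, so reads of their single rows are uncertain.

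The expressed genes most like CTCF over the 4 libraries, by distance between centred log2 CPM profiles among 2878 protein-coding genes of similar level, were AP1S1, FBXO25, ATP5F1C and DUT, with log2 fold changes of -0.57, -0.61, -0.55 and -0.61. Those most like RAD21, among 1858, were NUCKS1, TRIP12, SRSF10 and CDCA7, at 0.30 to 0.34. Both sets were picked for likeness in these same libraries, so their similar fold changes follow from the choice.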
